A study of Mus musculus with 2 samples.

Results

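A set of 10 genes around the brakes of the cell cycle is described here in CH12.LX: the 7 genes of cyclin-dependent kinase (CDK) inhibitors, the phosphatase gene Cdkn3, and Mtap and Klhl9, which neighbour Cdkn2a on chromosome 4. They were found in the gene tables by matching identifiers to the members' symbols in the GENCODE mouse annotation, and are 10 of 43346 annotated genes. CH12.LX is an established mouse B-cell lymphoma line of strain B10.H-2aH-4bp/Wts, which the labels call an analog of the human line GM12878. Its RNA was sequenced in 2 libraries numbered as biological replicates 1 and 2, with no treatment and no second cell type, so the design holds 1 group and no comparison between conditions. Per the labels, RNA longer than 200 nt was used with added spike-in RNA, and the assay is named total RNA-seq while its description says polyA+. The 10 genes were chosen with their levels in these libraries known, so levels are given as a description with no test. They were chosen by their TPM and counts at gene level, which therefore support nothing here beyond the description.

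CDK inhibitors hold the cell cycle by binding kinases that drive it. The INK4 proteins, encoded by Cdkn2a, Cdkn2b, Cdkn2c and Cdkn2d, bind CDK4 and CDK6 and keep cyclin D away from them. The CIP/KIP proteins, encoded by Cdkn1a, Cdkn1b and Cdkn1c, bind cyclin and kinase together and act mainly on CDK2 complexes. Cdkn2a carries 2 products read from different first exons, the CDK4 and CDK6 inhibitor p16Ink4a and p19Arf, which shields p53 from the ubiquitin ligase MDM2. In lymphocytes these genes are known as brakes on proliferation, and the Cdkn2a region is often lost or switched off in lymphoid tumours.

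The libraries held 24469094 and 23586580 expected counts (replicates 1 and 2) over all rows of the gene tables, spike-ins included, which are estimated numbers of reads with shared reads split among features. Levels are in TPM, which is abundance per transcript length with an equal total for every library, so that levels can be compared between genes. The B-lineage label fitted the data, since all 9 B-lineage markers reached 1 TPM in both replicates, from Pax5 at 8.43 ± 0.933 TPM to Cd74 at 2359 ± 165 TPM (SD, n = 2). Of 24 markers of T and NK, myeloid, erythroid and stromal cells, 0 reached 1 TPM in both replicates, 8 had 0 counts in both, and the highest, Epcam, stood at 0.84 and 1.23 TPM. The summed TPM of replicates 1 and 2 was 0.49 and 0.25 for 6 T and NK markers, 0.83 and 0.91 for 6 myeloid markers, 0.96 and 0.77 for 5 erythroid markers, and 1.64 and 1.94 for 7 stromal markers. The 2 libraries come from separate biosamples, and their spread covers only what differs between these 2 samples. In a bulk sample, fewer cells that express a gene and less RNA per cell cannot be told apart.

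Of the 7 inhibitor genes, 4 were expressed and 3 had no reads. At 1 TPM or more in both replicates stood 6 of the 10 genes, namely Cdkn1a, Cdkn1b, Cdkn2c, Cdkn2d, Cdkn3 and Klhl9, while 25.4% of all annotated genes and 45.9% of 21474 protein-coding genes reached that level. The other 4, Cdkn1c, Cdkn2a, Cdkn2b and Mtap, had 0 counts in both replicates, as had 34.1% of protein-coding genes. The split was wide: the lowest expressed gene, Cdkn2d, held 119 and 127 counts, and no gene fell between it and 0. Each family was divided, with 2 of 4 INK4 genes and 2 of 3 CIP/KIP genes expressed. The expected counts of all 10 genes were whole numbers in both libraries (within 0.005), and the deposited posterior SD of each gene's count was 0.

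**Figure D1:**
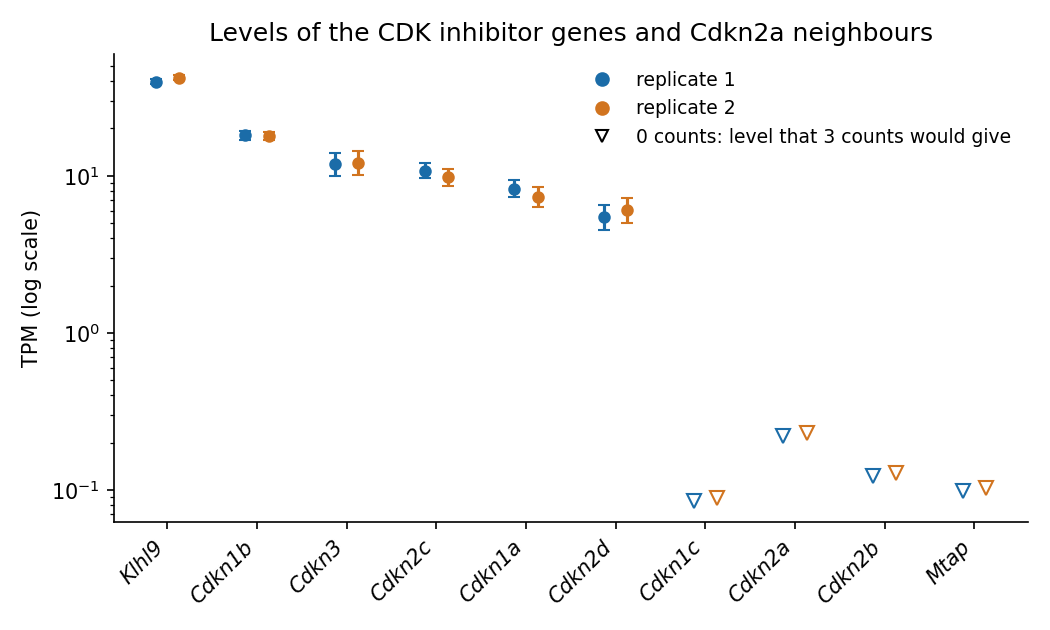
Level of each gene in TPM on a log scale in replicate 1 (blue) and replicate 2 (orange), with exact 95% Poisson intervals of the counts as bars. Filled points run from Klhl9 near 40.9 TPM to Cdkn2d near 5.74 TPM, and open triangles mark the level that 3 counts would give for the 4 genes with 0 counts, all below 0.25 TPM.

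Among the CIP/KIP genes, Cdkn1b led. Cdkn1b (ENSMUSG00000003031.10, GRCm38 chromosome 6, 134920401 to 134925513, plus strand) encodes p27, which holds CDK2 in resting cells and is removed by ubiquitination as cells enter S phase. It stood at 18.06 TPM in replicate 1 and 17.95 TPM in replicate 2, from 1003 and 974 counts, with a mean of 18.01 ± 0.0778 TPM (SD, n = 2). Cdkn1b was the highest of the 7 inhibitor genes in each library, and 49.7% of the 10998 expressed genes had a higher mean, so it lay at the middle of the expressed range.

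Cdkn1a (ENSMUSG00000023067.9, chromosome 17, 29090976 to 29100727, plus strand) encodes p21, the best-known target of p53 in the cell-cycle arrest after DNA damage. It stood at 8.28 and 7.32 TPM in replicates 1 and 2, from 257 and 191 counts, with a mean of 7.80 ± 0.679 TPM (SD, n = 2). Its level was below that of Cdkn1b in both libraries. Cdkn1c (ENSMUSG00000037664.8, chromosome 7, 143458339 to 143461050, minus strand) is an imprinted, maternally expressed gene that encodes p57, a CDK inhibitor that acts in development. It had 0 counts in both replicates, which allows up to 0.0850 and 0.0885 TPM (3 counts in each library, counting error only). The deposited upper credibility bound of Cdkn1c was higher, at 0.131 and 0.137 TPM.

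Among the INK4 genes, Cdkn2c led. Cdkn2c (ENSMUSG00000028551.10, chromosome 4, 109660876 to 109667189, minus strand) encodes p18, an inhibitor known to act in B-cell and plasma-cell differentiation. It stood at 10.8 and 9.77 TPM in replicates 1 and 2, from 302 and 263 counts, with a mean of 10.3 ± 0.728 TPM (SD, n = 2). Cdkn2d (ENSMUSG00000096472.1, chromosome 9, 21288410 to 21291407, minus strand) encodes the INK4 protein p19, which is unrelated to p19Arf. It stood at 5.43 and 6.04 TPM, from 119 and 127 counts, with exact 95% Poisson intervals of 98.6 to 142 and 106 to 151 counts. Cdkn2d was the lowest of the expressed inhibitor genes in both libraries.

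Cdkn2a (ENSMUSG00000044303.6, chromosome 4, 89274471 to 89294653, minus strand) had 0 counts in both replicates. By the limit of 3 counts this allows up to 0.221 TPM in replicate 1 and 0.230 TPM in replicate 2. The deposited upper credibility bound of Cdkn2a was higher, at 0.340 and 0.358 TPM. Both quantified transcripts of Cdkn2a had 0 counts. By the same limit of 3 counts, the p16Ink4a transcript ENSMUST00000060501, which starts at 89282192, is limited to 0.228 and 0.238 TPM. The p19Arf transcript ENSMUST00000107131, which starts at 89294653, is limited to 0.213 and 0.222 TPM. Cdkn2b (ENSMUSG00000073802.4, chromosome 4, 89306299 to 89311039, minus strand) encodes p15, an inhibitor induced by TGF-beta in epithelial cells. It had 0 counts in both replicates as well, a limit of 0.123 and 0.128 TPM. The limit for Cdkn2a is the higher because its transcripts are shorter, with an effective length of 650.66 nt in replicate 1 against 1170.16 nt for Cdkn2b.

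Over the 7 inhibitor genes the summed level was 42.6 and 41.1 TPM in replicates 1 and 2. Cdkn1b made 43.1% ± 0.899 of it, Cdkn2c 24.6% ± 1.12, Cdkn1a 18.6% ± 1.15 and Cdkn2d 13.7% ± 1.38 (SD, n = 2). The CIP/KIP sum was 25.8 ± 0.757 TPM and the INK4 sum 16.0 ± 0.297 TPM. These shares are of mRNA, and CDK inhibitor proteins are also set by their turnover, which was not measured.

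Cdkn3 (ENSMUSG00000037628.9, chromosome 14, 46760541 to 46771669, plus strand) encodes a phosphatase that removes the activating phosphate from CDK1 and CDK2. It stood at 11.83 and 12.13 TPM in replicates 1 and 2, from 136 and 134 counts. In order of mean level the expressed genes ran Klhl9, Cdkn1b, Cdkn3, Cdkn2c, Cdkn1a, Cdkn2d. The replicate values of neighbours in that order did not overlap, but with 2 values a gene this is a weak mark of separation. The deposited credibility bounds, whose level is not given in the sources used here, overlapped for Cdkn3 with Cdkn2c and for Cdkn2c with Cdkn1a in both libraries. Those of Cdkn1a and Cdkn2d overlapped in replicate 2 (6.11 to 8.73 and 4.92 to 6.97 TPM) but not in replicate 1 (7.12 to 9.45 and 4.38 to 6.29 TPM). Those of Klhl9 with Cdkn1b and of Cdkn1b with Cdkn3 overlapped in neither library.

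The replicates were close for these genes. Of the 6 genes with a mean of 20 or more counts, 0 differed by more than 1.5-fold between replicates, beside 2.69% of 11661 genes tested in the same way. On the scale of log2(TPM + 0.5), replicate 1 minus replicate 2 ran from -0.14 for Cdkn2d to 0.17 for Cdkn1a, and the median absolute difference was 0.11 for the 6 genes and 0.14 for all genes tested. With 1 library on each side no p-value was computed. With 2 libraries of 1 group, no gene can be ranked by likeness of its pattern to these.

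The transcript tables show which forms of the expressed inhibitors held the reads. Cdkn2d, Cdkn3 and Klhl9 each have 1 quantified transcript. For Cdkn2d it is ENSMUST00000086374, whose coding length in GENCODE M21 is 150 nt, shorter than the 504 nt of Cdkn2c and the 390 nt of Cdkn2b, so which protein form the Cdkn2d level stands for cannot be read from these tables. Cdkn1b, Cdkn2c and Cdkn1a each put their reads on 2 transcripts that, in GENCODE M21, share the length of their coding sequence (591, 504 and 477 nt) and differ outside it.

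**Figure D2:**
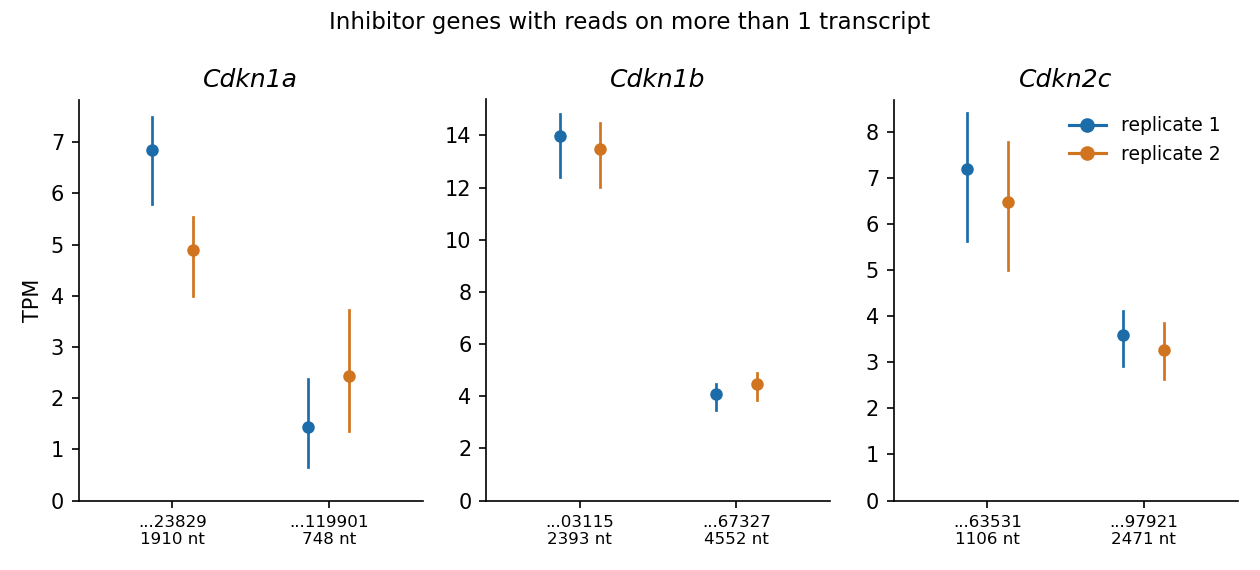
TPM of each transcript with reads for Cdkn1a, Cdkn1b and Cdkn2c in replicate 1 (blue) and replicate 2 (orange), with the deposited credibility bounds as bars and the transcript length under each pair. The 2 replicates overlap in their bounds for both transcripts of Cdkn1b and Cdkn2c, while for the main Cdkn1a transcript replicate 1 (5.79 to 7.49 TPM) lies above replicate 2 (3.99 to 5.53 TPM).

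Cdkn1b was read mainly from ENSMUST00000003115, with 3 exons and 2393 nt, which took 77.5% and 75.2% of its TPM in replicates 1 and 2. The rest, 22.5% and 24.8%, fell on ENSMUST00000067327, which has 2 exons and 4552 nt and the same first and last base. By reads the split was closer, with 634.57 and 587.27 counts on the shorter form and 368.43 and 386.73 on the longer one. Reads in shared exons were divided by estimation, so these shares carry the estimate's error.

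Cdkn2c has 2 start sites. The transcript from the downstream start, ENSMUST00000063531 (start 109665372, 1106 nt), took 66.7% and 66.4% of its TPM in replicates 1 and 2, or 66.5% ± 0.233 (SD, n = 2). The transcript from the upstream start, ENSMUST00000097921 (start 109667189, 2471 nt), took 33.3% and 33.6%. The share was nearly the same in both libraries. By reads the longer form was ahead, with 168.97 and 148.08 counts on it and 133.03 and 114.92 on the shorter one. The RefSeq promoter windows near these starts are shown because they differ in CpG and GC content. Each window runs from 250 bases before to 50 bases after a RefSeq start on GRCm38.p6, 5′ to 3′ on the minus strand, with CpG dinucleotides in capitals.
Cdkn2c downstream start, chr4:109665323-109665622: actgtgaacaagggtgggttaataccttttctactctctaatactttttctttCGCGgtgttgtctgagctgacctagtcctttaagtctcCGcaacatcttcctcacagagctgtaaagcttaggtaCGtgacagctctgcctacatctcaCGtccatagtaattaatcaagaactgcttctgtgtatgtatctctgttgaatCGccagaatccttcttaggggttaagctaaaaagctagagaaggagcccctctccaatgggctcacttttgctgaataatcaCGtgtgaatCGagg
Cdkn2c upstream start, chr4:109666707-109667006: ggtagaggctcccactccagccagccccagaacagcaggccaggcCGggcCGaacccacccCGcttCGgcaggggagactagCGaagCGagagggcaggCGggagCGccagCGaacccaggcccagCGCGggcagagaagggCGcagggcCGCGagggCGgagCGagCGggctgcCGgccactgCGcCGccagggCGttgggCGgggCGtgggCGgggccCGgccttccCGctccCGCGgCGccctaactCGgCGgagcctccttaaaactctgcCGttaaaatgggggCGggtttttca
The downstream window held 8 CpGs and a GC content of 44.0%, and the upstream window 33 CpGs and 73.3%. Of 32851 RefSeq promoter windows, 48.6% held at least as many CpGs as the first and 8.56% as many as the second. The RefSeq start of the upstream window lies 433 nt downstream of the GENCODE start of the long transcript. The whole window thus lies inside the span of that transcript and is not the promoter window of its GENCODE start.

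For Cdkn1a too, the estimated counts fell on transcripts from 2 annotated starts, though use of the starts was not measured. ENSMUST00000023829, from the main start at 29093769, took 82.6% and 66.8% of its TPM in replicates 1 and 2, with 6.84 and 4.89 TPM. ENSMUST00000119901, from a start further upstream at 29090979, took 17.4% and 33.2%, with 1.44 and 2.43 TPM. The estimate behind the upstream form is small, 15.80 and 25.63 counts with posterior SDs of 2.96 and 4.23, and its credibility bounds of 0.657 to 2.37 and 1.36 to 3.73 TPM overlapped between replicates. Its deposited length of 748 nt differs from the 922 nt of GENCODE M21. The remaining transcript, ENSMUST00000122348, had 0 counts. The window at the upstream start is shown because of a motif in it, with the match in capitals, 5′ to 3′ on the plus strand.
Cdkn1a upstream start, chr17:29090729-29091028: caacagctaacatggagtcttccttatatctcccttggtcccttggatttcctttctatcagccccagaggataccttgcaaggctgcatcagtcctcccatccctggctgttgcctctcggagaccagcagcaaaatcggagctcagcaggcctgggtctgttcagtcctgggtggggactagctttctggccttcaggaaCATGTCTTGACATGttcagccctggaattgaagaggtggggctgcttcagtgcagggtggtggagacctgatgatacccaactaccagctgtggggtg
The search was for CATG, any 6 bases and CATG again, a pair of the cores found in binding sites of p53, the transcription factor that induces Cdkn1a after DNA damage. The motif reads the same on both strands. The match lies 48 to 35 nt before the start, and 0.712% of all 32851 windows hold a match. The window at the main Cdkn1a start held no match and 23 CpGs, against 2 CpGs in the upstream window. Other motifs (CHR, E2F and CCAAT) were searched for as well. Neither Cdkn1a window held a match to them, though other windows described here did. A match is a description of the letters and not a measured binding site.

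The promoter windows of the genes with 0 counts at the Cdkn2a locus are shown to set their CpG content beside that of expressed genes, with CpGs in capitals, 5′ to 3′ on each gene's own strand. RefSeq, GRCm38.p6, also places the start of a long non-coding RNA, Gm12610, on the plus strand 561 nt from the p19Arf start and pointing away from it.
Cdkn2a p19Arf start, chr4:89294570-89294869: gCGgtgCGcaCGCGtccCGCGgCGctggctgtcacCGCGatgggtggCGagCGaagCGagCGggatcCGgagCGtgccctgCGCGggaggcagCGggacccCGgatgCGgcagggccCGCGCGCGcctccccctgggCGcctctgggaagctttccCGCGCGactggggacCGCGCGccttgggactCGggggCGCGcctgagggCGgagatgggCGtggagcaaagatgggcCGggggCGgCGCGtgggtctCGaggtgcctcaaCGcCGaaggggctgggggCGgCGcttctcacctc
Gm12610 start, chr4:89294930-89295229: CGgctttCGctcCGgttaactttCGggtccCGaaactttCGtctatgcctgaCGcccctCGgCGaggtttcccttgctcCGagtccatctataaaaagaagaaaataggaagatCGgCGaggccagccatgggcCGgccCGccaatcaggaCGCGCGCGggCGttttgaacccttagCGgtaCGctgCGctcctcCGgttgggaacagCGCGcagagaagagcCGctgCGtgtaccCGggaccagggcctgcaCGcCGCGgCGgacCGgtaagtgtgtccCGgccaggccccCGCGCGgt
Cdkn2a p16Ink4a start, chr4:89282143-89282442: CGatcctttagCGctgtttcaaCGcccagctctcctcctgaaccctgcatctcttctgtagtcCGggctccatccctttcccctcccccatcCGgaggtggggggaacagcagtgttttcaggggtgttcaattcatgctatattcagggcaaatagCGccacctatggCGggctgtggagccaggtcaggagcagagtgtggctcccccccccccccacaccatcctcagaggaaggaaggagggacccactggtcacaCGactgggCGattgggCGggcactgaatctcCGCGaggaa
Cdkn2b start, chr4:89310983-89311282: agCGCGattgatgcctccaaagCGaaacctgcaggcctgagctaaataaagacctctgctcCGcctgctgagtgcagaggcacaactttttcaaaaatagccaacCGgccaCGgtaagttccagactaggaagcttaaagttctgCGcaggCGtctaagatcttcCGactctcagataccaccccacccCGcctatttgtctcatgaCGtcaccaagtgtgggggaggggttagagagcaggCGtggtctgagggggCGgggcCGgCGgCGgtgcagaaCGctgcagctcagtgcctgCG
The p19Arf window held 45 CpGs, a number that 1.93% of all promoter windows and 1.23% of the windows of protein-coding genes with 0 counts reached. The p16Ink4a window held 12, the Cdkn2b window 18 and the Mtap window 14. The RefSeq start of the Mtap window lies 248 nt downstream of the GENCODE start of Mtap. Protein-coding genes at 0 counts had a median of 4 CpGs over 5959 windows, and those at 1 TPM or more had a median of 21 over 10040 windows. The 4 windows of Cdkn2a, Cdkn2b and Mtap thus lay above the median of genes with 0 counts, and the p19Arf window lay above that of expressed genes too. Of the expressed genes described here, the windows of Klhl9, Cdkn2d, Cdkn3 and Cdkn1b held 22, 22, 25 and 30 CpGs. Window sequence carries no information on methylation or binding, which were not measured.

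**Figure D3:**
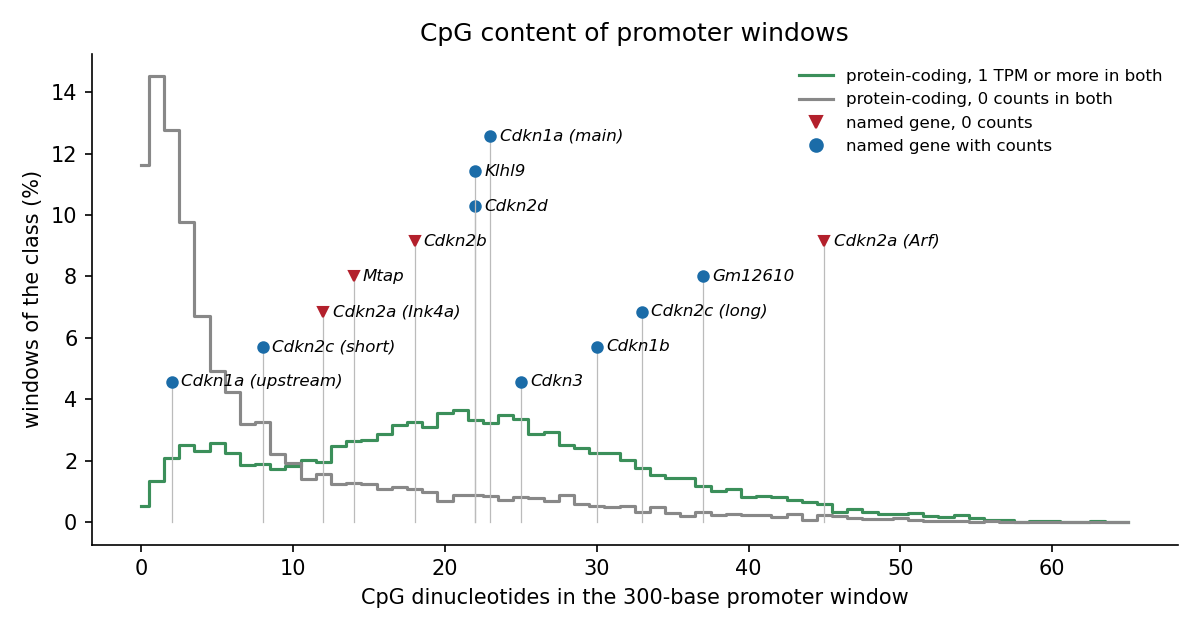
Number of CpG dinucleotides in promoter windows of protein-coding genes at 1 TPM or more (green) and at 0 counts (grey), as percent of windows in each class, with the windows of the named genes marked at heights chosen for legibility. The p19Arf window stands at 45 CpGs, the p16Ink4a, Mtap and Cdkn2b windows between 12 and 18, and the upstream Cdkn1a window at 2.

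The 0 counts at Cdkn2a and Cdkn2b lay in a stretch whose annotated genes had almost no counts, between expressed genes, Klhl9 and Gm12609. Reads outside annotated transcripts were not counted. Klhl9 (ENSMUSG00000070923.4, chromosome 4, 88718292 to 88722465, minus strand) encodes a substrate adaptor of the CUL3 ubiquitin ligase that acts in mitosis in human cells. It stood at 39.6 and 42.1 TPM in replicates 1 and 2, from 3274 and 3338 counts, the highest of the 10 genes in both libraries. Mtap (ENSMUSG00000062937.5, chromosome 4, 89137122 to 89181081, plus strand) encodes methylthioadenosine phosphorylase, which returns the sulphur of a polyamine by-product to methionine. Mtap had 0 counts in both replicates, which allows up to 0.0986 and 0.103 TPM over the gene. Both of its quantified transcripts had 0 counts, with limits of 0.0558 and 0.0581 TPM for the 2797 nt ENSMUST00000058030 and of 0.427 and 0.444 TPM for the 559 nt ENSMUST00000134429. The deposited upper credibility bound of the gene was 0.434 and 0.453 TPM, so its limit depends on which transcript is considered.

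Along the chromosome, Mtap begins 415 kb after Klhl9 ends, Cdkn2a begins 93.4 kb after Mtap ends, and Cdkn2b begins 11.6 kb after Cdkn2a ends. The next annotated gene with counts lay 70.9 kb beyond Cdkn2b, Gm12609 (ENSMUSG00000085147.1, 89381957 to 89399880, plus strand), a processed transcript with no coding sequence. Gm12609 stood at 30.1 and 24.1 TPM in replicates 1 and 2, from 244 and 187 counts, and the next feature, Gm12610 (ENSMUSG00000086035.1, 89421848 to 89463487), at 3.47 and 4.03 TPM from 26 and 29 counts. Both were named after their values were seen. RefSeq treats them as 1 gene, Gm12610, from 89295180 to 89518621, a span that also covers Cdkn2b on the other strand. The RNA counted at Gm12609 and Gm12610 thus lies inside a unit whose RefSeq start is the Gm12610 window shown above. In GENCODE M21 both features begin downstream of that start.

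**Figure D4:**
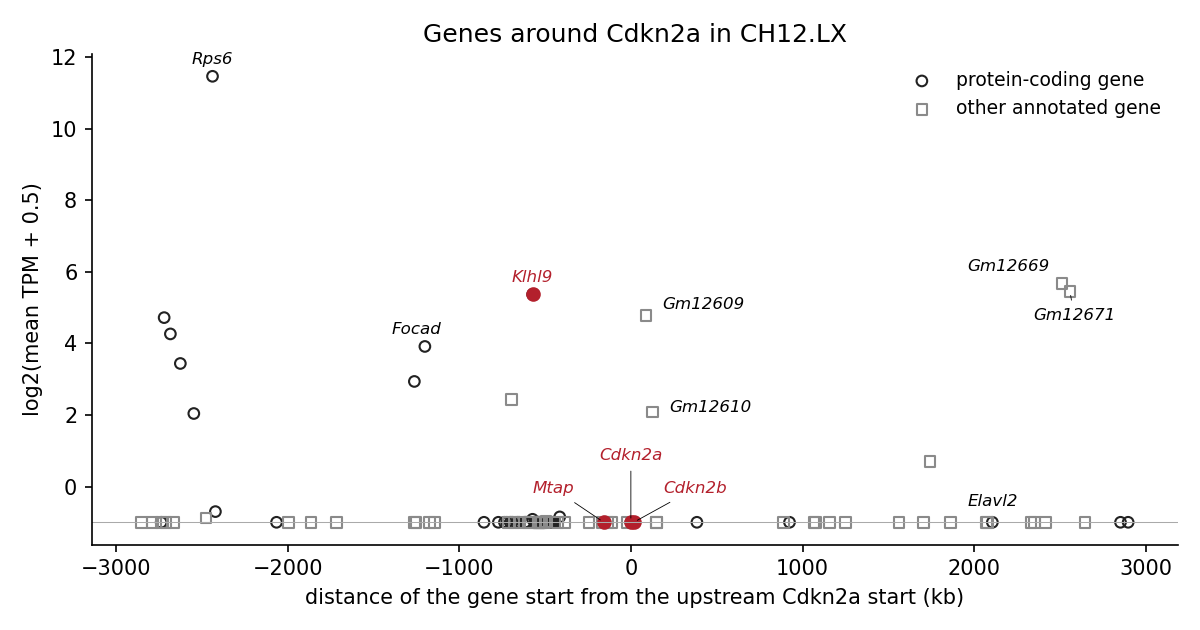
Mean level of each annotated gene, as log2(TPM + 0.5), against the distance of its start from the p19Arf start of Cdkn2a in kb, for protein-coding genes (circles) and other genes (squares). Mtap, Cdkn2a and Cdkn2b (red) lie on the line of 0 TPM between Klhl9 (red) at 40.9 TPM and Gm12609 at 27.1 TPM.

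From Klhl9 to Gm12609, 659 kb, 40 annotated genes begin, and 37 of them had 0 counts in both libraries. The other 3 were Ifne, an epithelial interferon gene with 1 count in replicate 2, and the non-coding Gm26525 and Gm26867, with 0.31 and 0.69 counts in replicate 1. The sum over the 40 genes was 1 count in each library. Mir31 and Gm26490, among the genes at 0 counts, have no effective length, so they could not receive counts. Type I interferon genes lie in this stretch and before Klhl9, and in the wider window of 3 Mb on each side of Cdkn2a, 16 of 17 protein-coding genes named Ifn had 0 counts.

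Among protein-coding genes ordered along the chromosome, the run at 0 counts that includes Cdkn2a held 9 genes over 4198 kb: Mtap, Cdkn2a, Cdkn2b, Dmrta1, Zfp352, Elavl2, Izumo3, Gm12666 and Tusc1. It was bounded by the 1 count of Ifne before Mtap and by Caap1, with 1030 and 1163 counts, after Tusc1. Of 2942 such runs in the annotation, 106 (3.60%) were at least as long, and the median run was 1 gene. A gene chosen at 0 counts falls in long runs more often than a share of runs shows. Such a share therefore does not measure how rare this run is. When 1 count was allowed, a choice made after seeing the data, the run extended as far as the neighbour of Klhl9 and held 31 genes. The genes added, from Gm26566 to Ifne, lie in the stretch of the type I interferon cluster, so they are not a set of unrelated genes. Over all annotated genes the run also held 9, but not the same ones, from Mir31 to Cdkn2b over 400 kb, bounded by Ifne and Gm12609. Mir31 and Gm26490, which could not receive counts, are in it. Of 7573 runs of all annotated genes, 435 (5.74%) were at least as long. In the window of 3 Mb on each side, 52 protein-coding genes begin. The window holds the type I interferon cluster, and only 19 of the 52 begin outside it. Of the 52, 41 had 0 counts, beside 34.1% of all protein-coding genes, and 8 reached 1 TPM in both replicates, beside 45.9%. Besides Klhl9, these were Rps6, a ribosomal protein gene, at 2832 ± 130 TPM, Rraga, a GTPase of amino-acid sensing, at 25.9 ± 4.96 TPM, Haus6 at 18.7 ± 0.990 TPM, Focad at 14.6 ± 0.919 TPM, Plin2 at 10.3 ± 0.0849 TPM, Mllt3 at 7.16 ± 1.19 TPM and Dennd4c at 3.61 ± 0.134 TPM. All 8 lie on the Mtap side of Cdkn2a. No DNA copy-number or chromatin data were used here, and RNA counts alone do not say what state the locus is in.

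The genes that Mtap works with were all expressed. A list of 10 genes of methionine salvage and polyamine synthesis had all 10 above 1 TPM and a median of 100 TPM. Methylthioadenosine, the substrate of the Mtap enzyme, is made by the aminopropyl transferases, whose genes Srm and Sms stood at 101 ± 5.69 and 206 ± 10.4 TPM. The genes of the steps after it, Mri1, Apip, Enoph1 and Adi1, stood at 70.5 ± 12.7, 174 ± 5.05, 51.1 ± 0.912 and 26.8 ± 2.91 TPM. Mtap was thus the gene without reads between expressed genes of the same route. Prmt5, a methyltransferase that methylthioadenosine inhibits, stood at 82.6 ± 2.53 TPM. Of the Klhl9 partners, Cul3 stood at 179 ± 3.12 TPM and Aurkb, the mitotic kinase that KLHL9 and KLHL13 act on in human cells, at 142 ± 5.33 TPM, but Klhl13 itself at 1.20 ± 0.156 TPM.

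The inhibitor genes lay far below Cdk4 and Cdk1 and nearer to Cdk2 and Cdk6, the other kinases considered. The 4 INK4 genes summed to 16.2 and 15.8 TPM in replicates 1 and 2, against 684 and 629 TPM for Cdk4 and Cdk6 together, a ratio of 0.0244 ± 0.00101 (SD, n = 2). Nearly all of the kinase sum was Cdk4 at 641 ± 36.8 TPM, since Cdk6 stood at 15.7 ± 2.56 TPM. The CIP/KIP sum was 0.0395 ± 0.00361 of the summed level of Cdk1 and Cdk2, a sum made mostly of Cdk1 at 598 ± 38.1 TPM. Against Cdk2 alone, at 57.0 ± 2.65 TPM, the CIP/KIP ratio was 0.454 ± 0.0344 (SD, n = 2). Cdkn3 was at 0.0201 ± 0.000924 of the level of Cdk1. These are ratios of mRNA and not of protein.

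**Figure D5:**
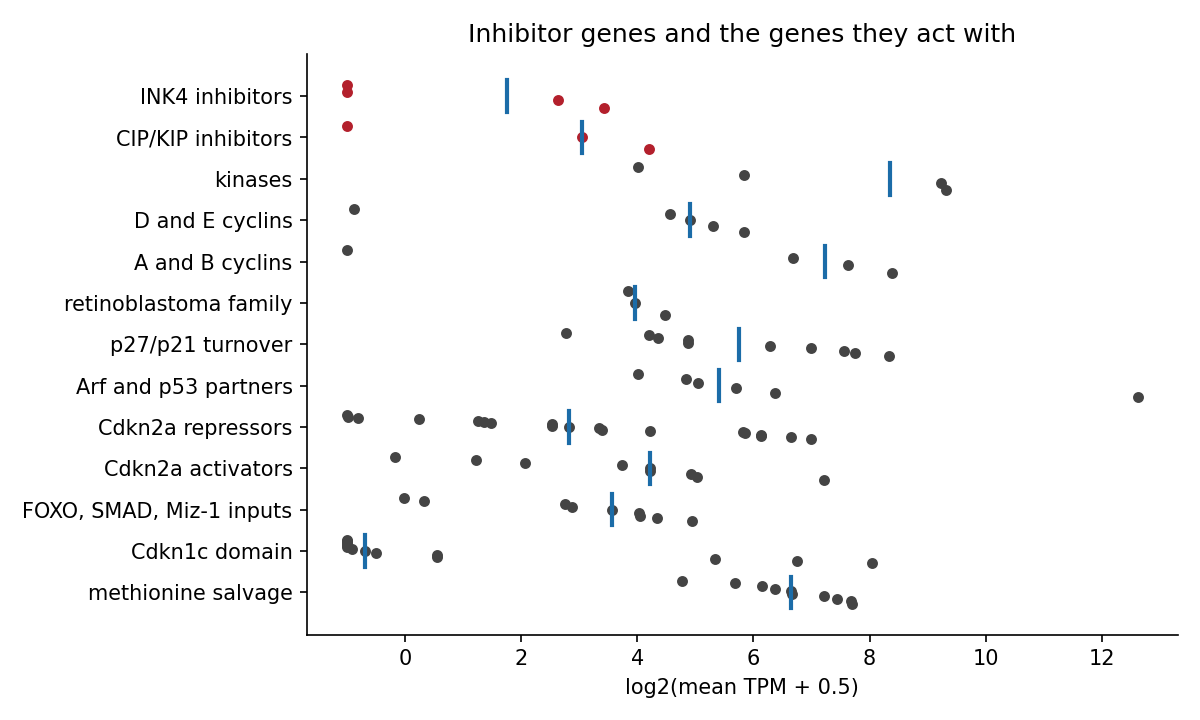
Mean level of each gene as log2(TPM + 0.5), by group, with the median of the group as a blue bar and the inhibitor genes in red. The INK4 group spans 0 to 10.3 TPM and the CIP/KIP group 0 to 18.01 TPM. The median of the 4 kinases is 328 TPM, with Cdk4 and Cdk1 above it and Cdk2 and Cdk6, at 57.0 and 15.7 TPM, below.

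Of the D and E cyclins, which activate the kinases that the inhibitors hold, 4 of 5 reached 1 TPM: Ccne1 at 56.6 ± 4.02 TPM, Ccne2 at 39.2 ± 2.98 TPM, Ccnd2 at 29.6 ± 4.999 TPM and Ccnd3 at 23.3 ± 0.382 TPM, with Ccnd1 at 0.0450 ± 0.0212 TPM. Of the A and B cyclins 3 of 4 passed, led by Ccnb1 at 334 ± 20.3 TPM, and the germline cyclin gene Ccna1 had 0 counts. All 3 genes of the retinoblastoma family, the substrates through which INK4 proteins act, were expressed, with Rbl1 at 21.8 ± 1.05 TPM, Rbl2 at 15.2 ± 0.608 TPM and Rb1 at 13.8 ± 1.36 TPM. Their median of 15.2 TPM lay within the range of the expressed inhibitors.

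The genes that turn p27 and p21 over were all present, 10 of 10 above 1 TPM, and their median was 53.3 TPM. Skp2, the F-box protein that recognises p27, stood at 17.8 and 17.9 TPM in replicates 1 and 2, a ratio to Cdkn1b of 0.990 ± 0.00663. Its cofactor Cks1b was higher, at 189 ± 24.3 TPM, or 10.5 ± 1.305 times Cdkn1b. Cul1 and Rbx1, the scaffold and RING subunits of the same ligase, stood at 126 ± 13.2 and 77.6 ± 0.877 TPM. Dtl, the adaptor through which the CUL4 ligase removes p21 in S phase, stood at 28.9 ± 0.233 TPM and Ddb1 at 214 ± 0.134 TPM.

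The partners of p19Arf were expressed although Cdkn2a had 0 counts. All 6 reached 1 TPM, with Npm1, the nucleolar protein that holds p19Arf, at 6302 ± 166 TPM, Mdm2 at 82.8 ± 4.98 TPM and the ubiquitin ligase gene Huwe1 at 28.2 ± 1.35 TPM. Trp53, which encodes p53, stood at 19.14 and 12.02 TPM in replicates 1 and 2, from 640 and 383 counts. It was the gene of this group that differed by more than 1.5-fold between replicates.

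Of 19 genes known to repress the Cdkn2a locus, 15 reached 1 TPM, with a median of 6.57 TPM. Some Polycomb genes were among the highest. Suz12 at 127 ± 5.09 TPM, Eed at 69.9 ± 2.75 TPM and Ezh2 at 57.3 ± 0.544 TPM form the complex that methylates histone H3. Rnf2 at 99.8 ± 3.93 TPM and Bmi1 at 69.7 ± 4.65 TPM belong to the complex that ubiquitinates H2A. Other Polycomb genes varied, with Phc2 at 18.2 ± 0.410, Ezh1 at 6.565 ± 0.148, Cbx2 at 2.075 ± 0.163 and Phc1 at 1.905 ± 0.417 TPM. Pcgf2, at 0.69 ± 0.0990 TPM, was the Polycomb gene below 1 TPM. Of the chromobox genes, Cbx8 stood at 5.31 ± 0.735 TPM and Cbx7, a repressor of Cdkn2a in fibroblasts, at 5.27 ± 1.37 TPM. The T-box repressors were at or near 0, with 0 counts for Tbx3 and 1 and 0 counts for Tbx2, and Id1, which opposes activation of p16Ink4a by ETS factors, had 0 and 2 counts. Of 9 genes known to activate the locus, 8 reached 1 TPM with a median of 18.1 TPM, among them Dmtf1, an activator of Arf, at 29.9 ± 2.31 TPM, and Ets2 and Ets1 at 32.3 ± 0.431 and 18.1 ± 0.0354 TPM. Kdm6b, a demethylase that opposes Polycomb at Cdkn2a, was the exception at 0.385 ± 0.163 TPM.

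Of 9 factors known to act on Cdkn1a, Cdkn1b or Cdkn2b, 7 reached 1 TPM. Foxo3 and Foxo4, of the FOXO factors that induce Cdkn1b, stood at 6.86 ± 0.247 and 6.28 ± 0.870 TPM, and Foxo1 at 0.495 ± 0.163 TPM. Of the SMAD factors through which TGF-beta induces Cdkn2b, Smad2 and Smad4 stood at 30.4 ± 4.24 and 11.3 ± 0.389 TPM. Smad3 was lower, at 1.17 and 0.33 TPM in replicates 1 and 2, from 68 and 32 counts. Among these 9 genes, Smad3 was the one that differed by more than 1.5-fold between replicates. Zbtb17, which encodes the Cdkn2b activator Miz-1, stood at 16.1 ± 0.707 TPM.

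Cdkn1c lies in an imprinted region of chromosome 7, and most of the listed genes there were at or near 0. The list reaches beyond the domain of Cdkn1c to the neighbouring genes H19, Igf2 and Ins2. Of the 13 listed genes, 3 reached 1 TPM in both replicates, Cd81 at 262 ± 11.3 TPM, Nap1l4 at 108 ± 3.56 TPM and Tssc4 at 39.8 ± 4.08 TPM. Kcnq1, Phlda2, Th, Ins2 and Igf2 had 0 counts in both. Kcnq1ot1, the long non-coding RNA that silences genes near Cdkn1c on the paternal chromosome, held 350 and 377 counts at 0.20 and 0.22 TPM, since its transcript is very long. The run of protein-coding genes at 0 counts around Cdkn1c was 2 genes, Kcnq1 and Cdkn1c, over 355 kb, bounded by Tssc4 and by Slc22a18 with 10 and 11 counts.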

How the data were processed

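RNA-seq libraries of CH12.LX, 2 biological replicates of 1 group, were used as deposited: a gene and a transcript table for each. Reads had been aligned to mm10 and quantified on GENCODE M4, per the file headers and accompanying text; for the aligner and quantifier, names were not given in the sources used here. Expected counts, as deposited, estimate reads per feature without normalization. The authors' TPM are per feature length with 1 fixed total over genes and spike-ins together. Also deposited were each transcript's percent of its gene's TPM, posterior means, and credibility bounds, used here as a signal range on the TPM scale.

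Names, types and coordinates came from GENCODE M21 (assembly GRCm38, which is mm10) by identifier without version, and 42462 of 43346 genes had a symbol. Of 17 transcripts of the described genes, 16 were found in M21 and 8 had the same length. Promoter windows came from RefSeq, GRCm38.p6. The genes and the lists were chosen with earlier results of these data known. By rule, named genes were the 10 genes, genes of the lists, and protein-coding genes within 3 Mb of Cdkn2a. Non-coding genes near Cdkn2a, pseudogenes, and members or borders of the runs at 0 counts outside that window were named after their values were seen.

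Genes were called expressed at 1 TPM or above in each replicate. To compare replicates, log2(TPM + 0.5) in replicate 2 was subtracted from that in replicate 1 for genes with a mean of 20 or more counts, and the pseudocount understates those of low genes. No test was possible within 1 group. A count of 0 was taken to allow 3 counts, fewer than the 3.69 counts of the exact Poisson upper bound at 0. Intervals are exact Poisson intervals at 95%. Both cover counting error only, since the labels name no molecular identifiers. The procedures for differences and runs were tested on simulated data. Alternatives used edgeR 4.0.16 (TMM) and DESeq2 1.42.0 (size factors) on rounded expected counts.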

Additional observations from a re-analysis of the deposited data

How the results depend on the processing

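The number of the 10 genes expressed (6) and at 0 counts (4) was the same under every alternative tried: thresholds of 0.5 and 2 TPM, posterior means, 3 counts or fewer, and leaving out either replicate. The number past 1.5-fold between replicates stayed at 0 under other pseudocounts, count filters and scalings (TMM and size factors). The summed level of the 7 inhibitor genes was 48.5 TPM when TPM was rescaled over protein-coding genes alone, a choice made after seeing the data, and 41.1 to 42.6 TPM when either replicate was left out. Of the 10 single levels, 6 moved by more than their replicate SD under posterior means, among them Cdkn2a to 0.145 TPM and Mtap to 0.160 TPM, genes with 0 counts whose posterior mean is above 0 by the estimate's construction. The run at 0 counts around Cdkn2a grew from 9 to 31 genes at 3 counts or fewer, at 1 count or fewer and under 1 TPM, and was 9 to 30 genes when either replicate was left out, since 1 count on Ifne in replicate 2 ends it. The ratio of INK4 genes to Cdk4 and Cdk6 was 0.0337 by expected counts, which are not per length, and 0.0237 to 0.0252 when either replicate was left out. No paired analysis was possible because the libraries form 1 group. The depth limits what can be said of a gene at 0 counts to the 3-count limits given beside each.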

Other observations

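Within 3 Mb of Cdkn2a, a pair of processed pseudogenes, chosen after their values were seen, carried counts. For Gm12671, but not for Gm12669, the estimate differed widely between the libraries. Gm12671 (ENSMUSG00000095937.1, chromosome 4, 91851668 to 91852669, minus strand) held 1414 expected counts in replicate 1 and 0.09 in replicate 2, or 86.8 and 0.01 TPM. Its posterior mean counts were 1298 and 645, with posterior SDs of 630 and 450, so its level is uncertain in both libraries. Gm12669 (ENSMUSG00000100863.1, chromosome 4, 91805547 to 91806555, minus strand) held 879 and 744 counts with posterior SDs of 12.9 and 11.2.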
